A study of Mus musculus with 9 samples.

Results

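The Chd genes encode the chromodomain helicase DNA-binding proteins, and all 9 of them, Chd1 to Chd9, were followed here among 19938 genes with a single-gene probe set. Each gene was found by its symbol in the array's annotation, among probe sets annotated to exactly 1 gene. Chd6 has 2 such probe sets and Chd7 has 30, and for each gene the brightest on average over the 9 arrays was used. Members were thus selected on their names, and the only measured value used was the mean level that picked a probe set for Chd6 and Chd7. The family was proposed for description with earlier results of these data known, so its differences are read as a description of these samples.

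Total RNA came from mice at postnatal day 13, with 3 samples in each of 3 groups, and 1 Affymetrix Mouse Gene 1.0 ST array was read for each. The groups were wildtype cerebellum, cerebellum of the SufuKO genotype, and medulloblastoma, a cerebellar tumour, of the Ptch1KO genotype. Sufu and Ptch1 both restrain Hedgehog signalling, the mitogenic pathway of granule neuron progenitors, so the design asks how tissue without either brake differs from normal tissue of that age. The labels name no strain, no Cre driver, no deleted exon and no pooling, and leave unsaid whether the 3 samples of a group are 3 animals. The p-values therefore rest on a spread that may be technical in part.

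A Chd protein slides, ejects or assembles nucleosomes with the energy of ATP, through a Snf2-type motor that follows a pair of chromodomains. Subfamily I, Chd1 and Chd2, binds DNA and acts at transcribed genes. Subfamily II, Chd3, Chd4 and Chd5, carries PHD fingers and supplies the motor of the NuRD complex, which couples remodelling to histone deacetylation. Subfamily III, Chd6 to Chd9, holds BRK domains and includes Chd7, the gene of CHARGE syndrome, and Chd8, a gene of autism. In the cerebellum Chd7 is known to be needed by granule neuron progenitors, and Chd4 to work in maturing granule neurons.

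The values are log2 expression as deposited, and a difference of 1 is a factor of 2. The array medians lay between 6.72 and 6.79. Sufu read 9.03, 8.82 and 9.02 in wildtype and 8.07, 8.14 and 7.99 in SufuKO, so it was lower in the group that lacks it by label. In the tumours Sufu read 9.91, 9.92 and 9.81. Ptch1 was not lower in the samples labelled Ptch1KO: it read 10.25, 10.26 and 10.28 in wildtype and 11.24, 11.43 and 11.17 in the tumours, 2.03-fold higher (limma adjusted p = 3.69e-07). Which part of Ptch1 is missing is not in the labels, so these values do not check that label. In SufuKO, Ptch1 read 10.19, 10.16 and 10.25 and did not pass against wildtype (-0.06 log2 units, limma adjusted p = 0.607). High Xist was seen on 3 wildtype arrays, 1 SufuKO array and 1 tumour array, so sex differed between the groups. A sex covariate is therefore estimated inside the mutant groups only, from 1 high-Xist array in each. This limit applies to every sex-adjusted value given below. On the first principal component tumour replicate 3 lay nearest to the wildtype, at 26.1 against 41.3 and 39.9 for the other tumours, with wildtype between -36.0 and -32.1. Wildtype arrays carried strong signals of the labelled tissue, with a mean of 11.97 for Gabra6, a receptor subunit of mature granule neurons, and of 10.1 for Pcp2, a Purkinje cell gene.

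All 9 Chd genes passed the filter on low values and were tested with limma over 16323 genes, with Benjamini-Hochberg adjustment and a threshold of 0.05. In SufuKO cerebellum against wildtype, Chd3, Chd4 and Chd7 rose, 0 fell and 6 did not pass. Of all tested genes, 25.4% were called in that comparison, 13% higher and 12.4% lower. In the tumours against wildtype, 4 Chd genes rose (Chd1, Chd4, Chd7 and Chd8), 3 fell (Chd3, Chd5 and Chd9) and 2 did not pass (Chd2 and Chd6). There 46.8% of all tested genes were called, 22.1% higher and 24.7% lower, so calls in the tumours were common throughout the array. Between the mutants, Chd1 was higher in the tumours and Chd3, Chd5 and Chd9 were lower, against 12.2% of all tested genes called higher and 17.5% lower (29.7% in all).

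No Chd gene reached 1 log2 unit in any comparison. Of the 16323 tested genes, 222 were called at that size or more in SufuKO, 1217 in the tumours and 307 between the mutants. The largest differences were 0.42 in SufuKO, 0.63 in the tumours and 0.54 between the mutants, in size. With its sign, the median difference over the 9 genes was 0.18 in SufuKO, 0.18 in the tumours and -0.01 between the mutants. All tested genes had a median of -0.01 in each comparison. Regardless of sign, the members' median was 0.18 in SufuKO, 0.29 in the tumours and 0.17 between the mutants. Over all tested genes that size was 0.12, 0.19 and 0.12. Every tumour array lay outside the wildtype range for all 9 genes, as it did for 56.6% of all tested genes. SufuKO and wildtype arrays did not overlap for 7 of the 9, against 41.0% of all tested genes, and the mutants did not overlap for 4, against 39.7%. Levels in bulk RNA are relative to the RNA of all cells in the tissue, so fewer cells of a type and less RNA per cell cannot be told apart.

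**Figure D1:**
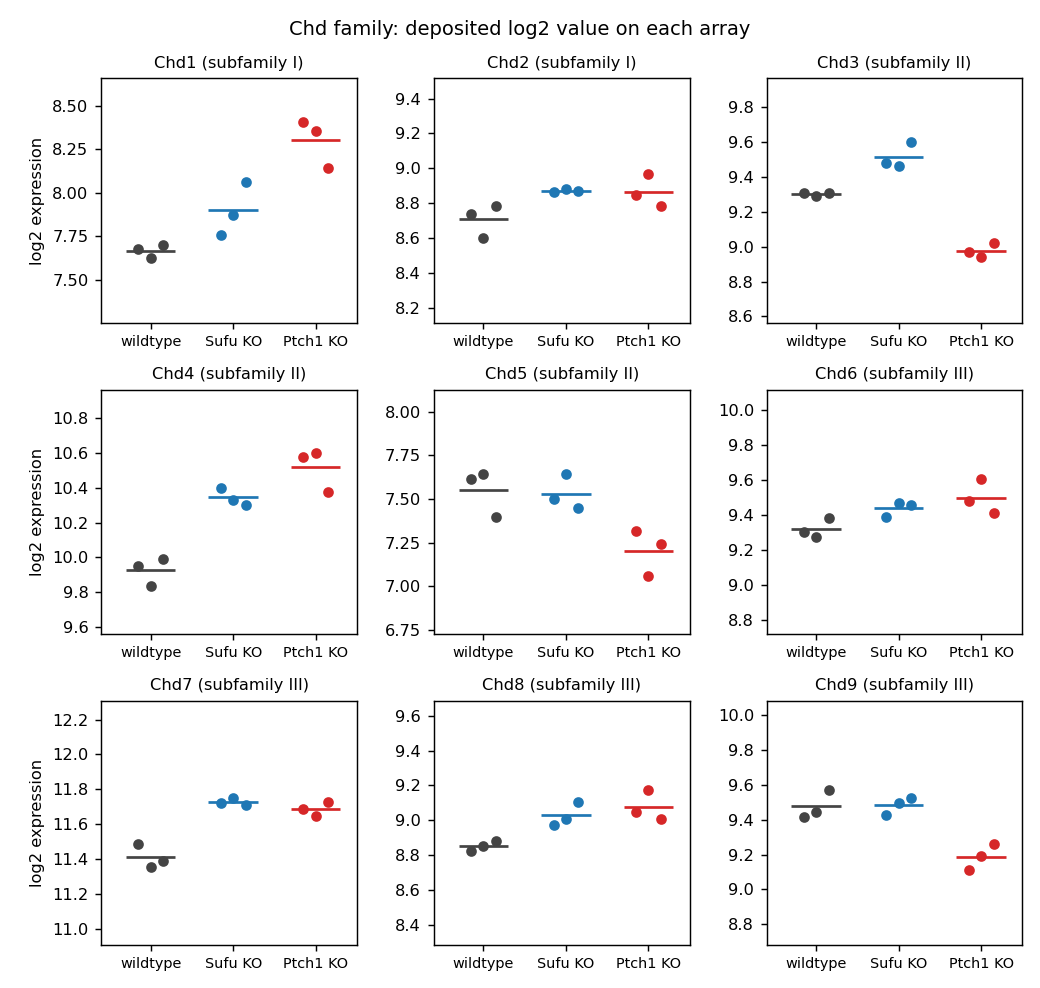
Deposited log2 expression (vertical axis) of the 9 Chd genes on each array, in 1 panel a gene, with all panels spanning the same number of log2 units. Points are single arrays in replicate order and bars are means of 3 arrays. The means of Chd1, Chd4, Chd6 and Chd8 climb from wildtype through SufuKO to the tumours, though not every step passed the test. Chd3 is highest in SufuKO and lowest in the tumours.

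The promoters of 5 members, Chd4, Chd5, Chd6, Chd8 and Chd9, were listed in the RefSeq promoter table for GRCm38.p6. Those of Chd4, which rose in the tumours, and of Chd5 and Chd9, which fell there, are shown to set the start regions of genes that moved in opposite directions side by side. Each line gives the 250 bases before the most upstream listed start, 5′ to 3′ on the gene's strand, with GC boxes (GGGCGG on either strand) and E-boxes (CAGCTG) in capitals. They lie at chr6:125095731-125095980 on the + strand, chr4:152338401-152338650 on the + strand and chr8:90828585-90828834 on the + strand.
Chd4: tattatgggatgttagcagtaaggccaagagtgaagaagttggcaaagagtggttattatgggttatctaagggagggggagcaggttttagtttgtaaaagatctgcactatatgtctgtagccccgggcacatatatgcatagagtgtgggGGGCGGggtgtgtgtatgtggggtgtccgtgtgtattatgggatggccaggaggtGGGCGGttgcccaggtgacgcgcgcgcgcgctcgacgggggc
Chd5: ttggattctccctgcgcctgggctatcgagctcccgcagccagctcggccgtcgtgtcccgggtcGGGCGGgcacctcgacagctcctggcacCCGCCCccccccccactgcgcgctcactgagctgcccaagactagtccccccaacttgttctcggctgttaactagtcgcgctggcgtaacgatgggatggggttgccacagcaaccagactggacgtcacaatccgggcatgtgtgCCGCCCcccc
Chd9: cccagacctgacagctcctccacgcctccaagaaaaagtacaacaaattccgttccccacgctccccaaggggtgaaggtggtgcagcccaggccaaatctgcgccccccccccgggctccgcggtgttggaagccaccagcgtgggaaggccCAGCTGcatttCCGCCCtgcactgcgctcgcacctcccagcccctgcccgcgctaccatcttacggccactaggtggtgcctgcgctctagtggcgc

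The 5 listed windows all held a GC box. The window of Chd4 held 12 CpG dinucleotides, more than 66.2% of all windows, those of Chd9, Chd6, Chd8 and Chd5 held 16, 19, 20 and 21, and the median over the windows of 27025 genes was 6. At least 1 GC box was present in each of the 5, with 2 in Chd4, 3 in Chd5, 1 in Chd6, 3 in Chd8 and 1 in Chd9, against 33.0% of all windows. The CCAAT box, searched as CCAAT on both strands, was found 3 times in Chd6 and 1 time in Chd8, and is present in 34.5% of all windows. An E-box (CAGCTG), the motif of proneural factors, was found 1 time, in Chd9, and in 12.7% of all windows. The core letters CCACCCA of the Gli motif were in 0 of the 5 windows and in 8.16% of all windows. A match is a description of the letters and not of a bound site.

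Chd1, which reads a histone mark of active promoters and travels with elongating RNA polymerase, gave the largest rise of the family in the tumours. Chd1 read 7.68, 7.62 and 7.70 log2 units in wildtype, 7.76, 7.87 and 8.06 in SufuKO and 8.41, 8.35 and 8.14 in the tumours. Every tumour array lay above every SufuKO array, and every SufuKO array above every wildtype array. The rise in the tumours was 1.55-fold (0.63 ± 0.09 log2 units, SE of 3 against 3 arrays, adjusted p = 9.20e-05 with limma). It was also 1.32-fold above SufuKO (adjusted p = 0.00511). In SufuKO the log2 difference was 0.23 ± 0.09 and did not pass (adjusted p = 0.0879), although it passed without SufuKO replicate 1 (0.30, adjusted p = 0.0403) and once sex was a covariate (0.34, adjusted p = 0.0277).

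Chd2, the closest relative of Chd1 and a gene of childhood epilepsy, passed in none of the 3 comparisons. Chd2 read 8.74, 8.60 and 8.78 in wildtype, 8.87, 8.88 and 8.87 in SufuKO and 8.85, 8.97 and 8.78 in the tumours. Both mutants lay above the wildtype range, by very little in tumour replicate 3, and they overlapped each other. The log2 difference was 0.16 in SufuKO (95% confidence interval 0.01 to 0.32, adjusted p = 0.125) and 0.16 in the tumours (interval -0.0013 to 0.31, adjusted p = 0.0990). Between the mutants it was -0.01 (interval -0.16 to 0.15), with a sign that changed between alternatives. With array weights both differences from wildtype passed (0.18, adjusted p = 0.0269 in SufuKO, and 0.18, adjusted p = 0.0382 in the tumours).

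Chd3, a NuRD motor, was the member called in opposite directions in the mutants. Its log2 levels were 9.31, 9.29 and 9.31 in wildtype, 9.48, 9.46 and 9.60 in SufuKO and 8.97, 8.94 and 9.02 in the tumours. The 3 groups did not overlap, with SufuKO highest and the tumours lowest. In the tumours Chd3 fell 1.25-fold (-0.33 ± 0.06 log2 units, SE, adjusted p = 0.000966 with limma). Against SufuKO it was 1.45-fold lower (-0.54 ± 0.06, adjusted p = 7.75e-05).

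The rise of Chd3 in SufuKO was 1.16-fold (0.21 ± 0.06 log2 units, SE, adjusted p = 0.0290 with limma) and passed in 15 of 19 alternatives. It did not pass without wildtype replicate 1, 2 or 3 (adjusted p = 0.0724, 0.0849 and 0.0678) or without SufuKO replicate 3 (0.0953), and its size stayed between 0.17 and 0.24 log2 units in all 19 alternatives. The fall in the tumours and the difference between the mutants passed in all 19.

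Chd4, the most studied NuRD motor, rose in both mutants. On the log2 scale Chd4 read 9.95, 9.83 and 9.99 in wildtype, 10.40, 10.33 and 10.30 in SufuKO and 10.57, 10.60 and 10.38 in the tumours. All mutant arrays lay above all wildtype arrays, and tumour replicate 3 lay within the SufuKO range. Chd4 rose 1.34-fold in SufuKO (0.42 ± 0.08 log2 units, SE, adjusted p = 0.00193 with limma), and in the tumours the rise was 1.51-fold (0.59 ± 0.08, adjusted p = 4.06e-05). The excess of 0.17 in the tumours over SufuKO did not pass (interval 0.0048 to 0.34, adjusted p = 0.121). That difference passed without tumour replicate 3 (0.24, adjusted p = 0.0255) and with quantile normalization (0.23, adjusted p = 0.0332).

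Chd5, the NuRD motor of neurons and testis and a tumour suppressor in neuroblastoma, fell in the tumours. The 9 log2 levels of Chd5 were 7.62, 7.64 and 7.40 in wildtype, 7.50, 7.64 and 7.45 in SufuKO and 7.31, 7.06 and 7.24 in the tumours. The tumours lay below every other array, and the wildtype and SufuKO arrays overlapped. The fall against wildtype was 1.27-fold (-0.35 ± 0.09 log2 units, SE, adjusted p = 0.00736 with limma). Against SufuKO it was 1.25-fold (-0.32 ± 0.09, adjusted p = 0.0176), a call that ended without SufuKO replicate 2 (adjusted p = 0.0868) or tumour replicate 2 (adjusted p = 0.0872). In SufuKO itself the difference from wildtype was -0.02 (interval -0.22 to 0.18, adjusted p = 0.906), a sign that changed between alternatives.

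NuRD holds 1 of these 3 motors at a time, so their balance within each array was also compared between groups, a choice made after their values were seen. Levels of different probe sets cannot be set against each other, and only the change of a log2 ratio between groups is read. The ratio of Chd4 to Chd3 was 1.89-fold higher in the tumours than in wildtype (0.92 log2 units) and 1.64-fold higher than in SufuKO. The ratio of Chd4 to Chd5 was 1.92-fold higher in the tumours than in wildtype and 1.36-fold higher in SufuKO than in wildtype. The groups did not overlap for either ratio in any of the 3 comparisons, each with exact permutation p = 0.1 (2-sided, the smallest that 3 against 3 arrays allow) and 0.15 adjusted over the 9 ratio tests. In all 3 comparisons this outcome was fixed beforehand by the ranges of the single genes. In the tumours against wildtype, Chd4 already lay above the wildtype range and Chd3 and Chd5 below it. In the comparisons with SufuKO, the ranges of the single genes likewise left no room for the ratios of the groups to overlap. For these ratios of Chd4 the permutation test adds nothing to the values of the single genes. For Chd3 over Chd5, which fell together in the tumours, the change was 0.02 log2 units against wildtype (exact permutation p = 0.9). That ratio read 0.23 higher in SufuKO than in wildtype and -0.21 in the tumours against SufuKO, with overlapping groups in both (exact permutation p = 0.2 each).

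**Figure D2:**
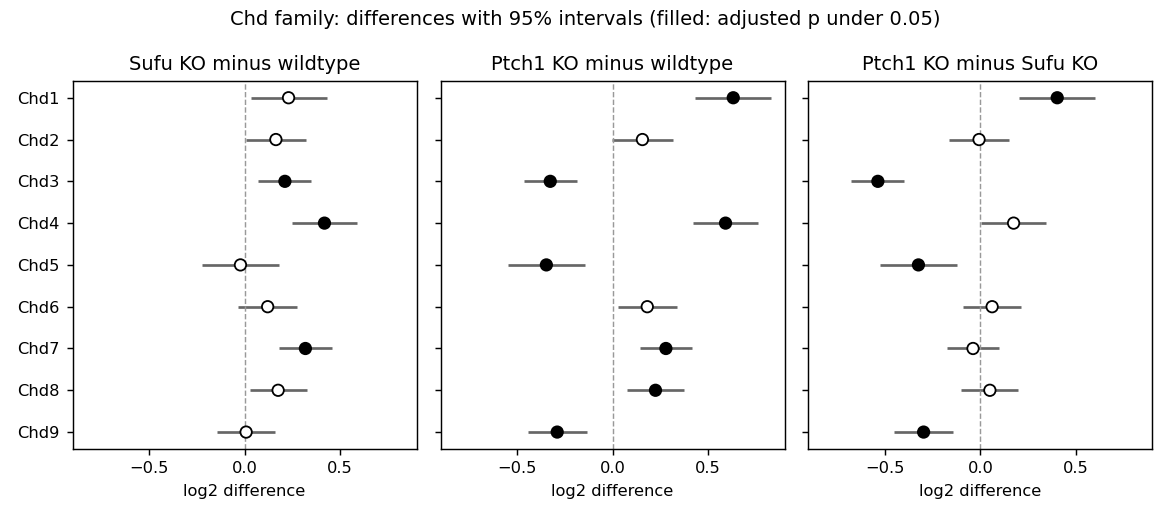
Log2 differences (horizontal axis) of the 9 Chd genes in the 3 comparisons, with 95% confidence intervals as lines. Filled points passed limma's adjusted p threshold of 0.05; Chd4 and Chd7 are filled and positive for both mutants against wildtype, and Chd3 is filled on opposite sides of 0.

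Chd6, a subfamily III remodeller, was higher on every mutant array than on any wildtype array without passing the test. Chd6 read 9.30, 9.27 and 9.38 in wildtype, 9.39, 9.47 and 9.46 in SufuKO and 9.48, 9.61 and 9.41 in the tumours. The difference was 0.12 log2 units in SufuKO (interval -0.03 to 0.27, adjusted p = 0.253) and 0.18 in the tumours (interval 0.03 to 0.33, adjusted p = 0.0506). The value in the tumours lay next to the threshold and passed in 7 of 19 alternatives, among them without tumour replicate 3 (adjusted p = 0.0241) and without wildtype replicate 3 (adjusted p = 0.0498). A second, dimmer Chd6 probe set read -0.07 in SufuKO (adjusted p = 0.761) and 0.13 in the tumours (adjusted p = 0.440), with overlapping groups in both.

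Chd7, the remodeller of granule neuron progenitors, rose in both mutants. The probe set that stands for it read 11.49, 11.35 and 11.39 in wildtype, 11.72, 11.75 and 11.71 in SufuKO and 11.69, 11.65 and 11.73 in the tumours. All mutant arrays lay above all wildtype arrays and the mutants overlapped. The rise was 1.25-fold in SufuKO (0.32 ± 0.06 log2 units, SE, adjusted p = 0.00301 with limma), and in the tumours 1.21-fold (0.28 ± 0.06, adjusted p = 0.00276). The tumours minus SufuKO gave -0.04 log2 units (interval -0.18 to 0.10, adjusted p = 0.734). Both rises passed in all 19 alternatives.

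The array carries 30 single-gene probe sets for Chd7, which read the same RNA and are not replicates of the condition. Their means over the 9 arrays ran from 9.19 to 11.6, and the brightest was the one chosen. All 30 differences were positive in SufuKO, from 0.06 to 0.58 with a median of 0.41, and all 30 in the tumours, from 0.11 to 0.47 with a median of 0.36. With limma over 17877 single-gene probe sets, 24 were called higher in SufuKO and 23 in the tumours, where 13.6% and 22.9% of all probe sets were, and 0 were called lower, where 12.6% and 25% of all were (all 30 differences were positive). The chosen probe set stood 10th from the lowest of the 30 in each comparison with wildtype, so most Chd7 probe sets read a larger rise than the one that stands for the gene. The other 7 of the tumours and 6 of SufuKO did not pass.

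The spread among Chd7 probe sets can be seen at its ends. The probe set with the smallest rise in SufuKO read 11.20, 10.88 and 10.98 in wildtype, 10.92, 11.06 and 11.27 in SufuKO and 11.29, 11.18 and 11.17 in the tumours, and its groups overlapped. The probe set with the largest rise read 9.96, 9.78 and 9.93 in wildtype, 10.45, 10.42 and 10.53 in SufuKO and 10.33, 10.39 and 10.36 in the tumours, with both mutants above wildtype. Averaged over the 30 probe sets, Chd7 read 10.29, 10.11 and 10.18 in wildtype, 10.53, 10.59 and 10.59 in SufuKO and 10.56, 10.52 and 10.52 in the tumours. That average rose by 0.38 log2 units in SufuKO (limma adjusted p = 0.00145) and by 0.34 in the tumours (adjusted p = 0.00101). The median difference of the 15 dimmer probe sets was 0.47 in SufuKO and 0.42 in the tumours, and that of the 15 brighter ones 0.38 and 0.32. Between the mutants 0 of the 30 passed with limma (1 at an unadjusted p under 0.05, smallest adjusted p = 0.0794), where 12.7% of all probe sets were called higher in the tumours and 17.1% lower.

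**Figure D3:**
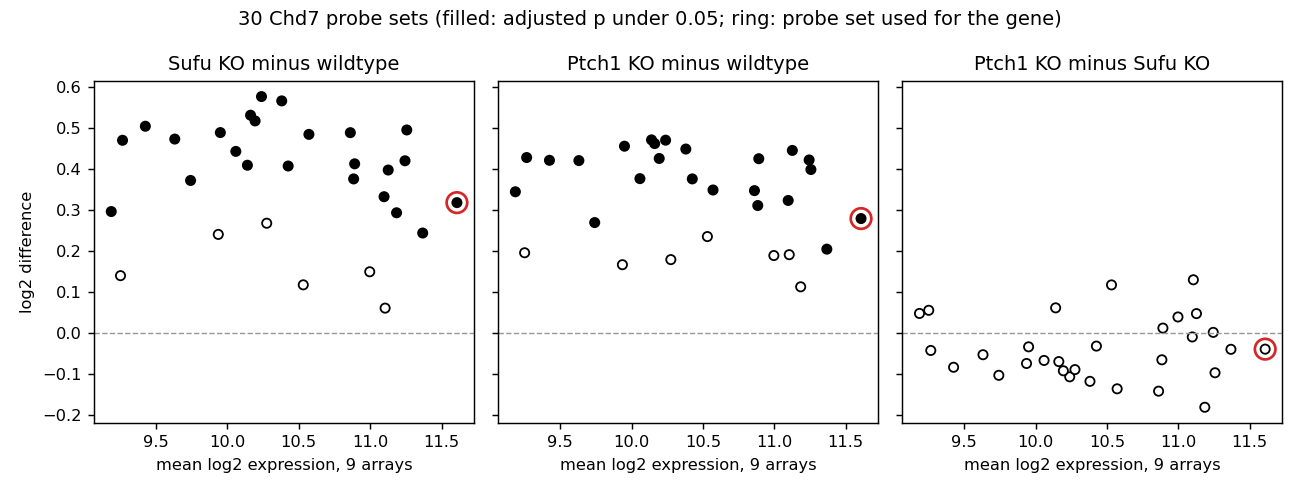
Log2 difference (vertical axis) of each of the 30 Chd7 probe sets against its mean log2 expression over 9 arrays (horizontal axis), in 1 panel a comparison. Filled points passed the adjusted p threshold of 0.05 and the ring marks the probe set that stands for the gene; all 30 lie above 0 in both comparisons with wildtype, and between the mutants they lie on both sides of 0.

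Chd8, the beta-catenin-binding member, rose in the tumours. Chd8 read 8.83, 8.85 and 8.88 in wildtype, 8.97, 9.01 and 9.11 in SufuKO and 9.05, 9.17 and 9.01 in the tumours. Both mutants lay above wildtype on every array and overlapped each other. The rise in the tumours was 1.17-fold (0.22 ± 0.07 log2 units, SE, adjusted p = 0.0166 with limma), and the call ended without wildtype replicate 1 (adjusted p = 0.0561) or tumour replicate 2 (adjusted p = 0.0804). In SufuKO the difference of 0.18 did not pass (interval 0.03 to 0.33, adjusted p = 0.0838), although it passed once sex was a covariate (0.26, adjusted p = 0.0227). Between the mutants it was 0.05 (interval -0.10 to 0.20, adjusted p = 0.680).

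Chd9, a subfamily III member with a known part in bone-forming cells, was lower in the tumours than in either cerebellum. Its log2 levels were 9.42, 9.44 and 9.57 in wildtype, 9.43, 9.50 and 9.53 in SufuKO and 9.11, 9.19 and 9.26 in the tumours. The tumours lay below all other arrays, and wildtype and SufuKO covered nearly the same range. Chd9 fell 1.22-fold against wildtype (-0.29 ± 0.07 log2 units, SE, adjusted p = 0.00437 with limma) and 1.23-fold against SufuKO (-0.30 ± 0.07, adjusted p = 0.00659), and both calls held in all 19 alternatives. In SufuKO the difference from wildtype was 0.01 (interval -0.15 to 0.16, adjusted p = 0.958), a sign that changed between alternatives.

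Across the 7 Chd genes called in the tumours, tumour replicate 3 was the tumour array nearest to the wildtype mean for 5 (Chd1, Chd3, Chd4, Chd8 and Chd9). Over all tested genes, this array also lay nearest to the wildtype on the first principal component (26.1 against 41.3 and 39.9). The share of all called genes for which it was nearest was not counted. All 7 calls kept their side of the threshold without it.

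Markers of cell types differed between the groups as well. Of all tested genes, 13% were called higher and 12.4% lower in SufuKO, and 22.1% and 24.7% in the tumours. All 9 measured markers of dividing cells, led by Mcm5 and Mki67, rose in both mutants, and their summed linear signal ran from 1102 to 1310 in wildtype, 4162 to 4668 in SufuKO and 6680 to 9386 in the tumours. Granule neuron progenitor markers, led by Ccnd2 and Mycn, rose in 7 of 9 cases in SufuKO and in 9 of 9 in the tumours, with sums of 2311 to 2788, 6763 to 7156 and 10418 to 13303. The 2 that did not pass in SufuKO were Gli1 (-0.12 log2 units, limma adjusted p = 0.537) and Ccnd1 (0.31, adjusted p = 0.0889). Granule neuron markers, led by Calb2 and Etv1, fell in 8 of 9 cases in each mutant, with sums of 26095 to 29023 in wildtype, 17044 to 18616 in SufuKO and 8499 to 11876 in the tumours.

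Other cell types also differed between the groups. Purkinje cell markers (Pcp2 and Calb1 first) fell in 6 of 6 cases in each mutant and mature oligodendrocyte markers (Mal and Mag first) in 7 of 7, with summed signals of 10677 to 11512 and 10951 to 12928 in wildtype, 7099 to 7494 and 6722 to 9066 in SufuKO, and 3076 to 3452 and 2773 to 3523 in the tumours. GABAergic interneuron markers (Tfap2b and Pvalb first) fell in 4 of 6 cases in SufuKO and 6 of 6 in the tumours. Pax2 (-0.10 log2 units, limma adjusted p = 0.432) and Sst (-0.07, adjusted p = 0.772) did not pass in SufuKO. The summed signals of this list were 4351 to 4672 in wildtype, 2477 to 2683 in SufuKO and 1154 to 1315 in the tumours. Bergmann glia and astrocyte markers (Hopx and Gdf10 first) fell in 7 of 9 cases in each mutant, from sums of 17832 to 18449 in wildtype to 13904 to 14455 in SufuKO and 11854 to 14179 in the tumours.

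Endothelial and pericyte markers (Pdgfrb and Vtn first) fell in 4 of 7 cases in SufuKO and 6 of 7 in the tumours, with sums of 2323 to 2544 in wildtype, 1798 to 1898 in SufuKO and 1749 to 1885 in the tumours. Oligodendrocyte precursor markers (Pdgfra and Olig2 first) rose in 1 and fell in 2 of 5 cases in SufuKO, and rose in 3 and fell in 1 in the tumours. Their sums were 1235 to 1324, 1298 to 1429 and 2284 to 2728. Sox10 fell in both mutants (-0.49 and -0.31 log2 units), and Olig1 fell in SufuKO (-0.52). Olig2 did not pass in SufuKO (-0.14, limma adjusted p = 0.481). Pdgfra had the largest difference of the list in each mutant (1.14 and 2.36), so it weighs most in the change of the sums. Microglia markers (C1qb and C1qc first) rose in 1 of 8 cases in SufuKO and 4 of 8 in the tumours, with sums of 1042 to 1065, 1122 to 1257 and 1427 to 1671. No list held a marker below the filter on low values. The part of cell makeup in the Chd differences was not tested.

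The other subunits of NuRD, the deacetylase complex driven by Chd3, Chd4 and Chd5, mostly rose, as Chd4 did. In the tumours the motors Chd3 and Chd5 fell instead (-0.33 and -0.35 log2 units). More genes rose than fell in each of the lists that follow as well, in both mutants. The shares to set beside each list are those of all tested genes. They were 13% higher and 12.4% lower in SufuKO, and 22.1% higher and 24.7% lower in the tumours. Among the 12 tested, SufuKO showed 7 risen, 1 fallen and 4 short of the threshold (median log2 difference 0.22), and the tumours 10 risen, 1 fallen and 1 short of it (median 0.44). Hdac2, a histone deacetylase, rose by 0.65 log2 units in SufuKO (adjusted p = 0.000108 with limma), and 2.03-fold in the tumours (adjusted p = 5.11e-07). Cdk2ap1, a small subunit, rose 1.69-fold and 2.03-fold, and Rbbp4, a histone-binding subunit, 1.31-fold and 1.57-fold. Mta3, an alternative to the scaffold subunits Mta1 and Mta2, fell in both mutants (-0.21, adjusted p = 0.0422, and -0.20, adjusted p = 0.0316). That call was absent in 11 of 19 alternatives in SufuKO, among them without any 1 wildtype or SufuKO array, and in 6 of 19 in the tumours, among them without wildtype replicate 1 or 3 or tumour replicate 2 or 3. Gatad2b was the subunit that did not pass in the tumours (0.08, adjusted p = 0.446), and Hdac1, Mbd3, Gatad2b and Rbbp7 were those that did not pass in SufuKO.

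Genes tied to Chd7 and Chd8 were tested as a second list of 10, of which 5 rose and 1 fell in SufuKO and 8 rose and 0 fell in the tumours (limma; Rbbp5 and Sox2 did not pass there, neither at an unadjusted p under 0.05). Their median log2 differences were 0.25 and 0.43. Sox11 and Sox4, transcription factors that Chd7 is known to switch on in newborn neurons, rose 3.16-fold and 1.62-fold in SufuKO and 4.29-fold and 2.21-fold in the tumours. Dpy30 and Ash2l, subunits of the same histone methyltransferase complexes as Wdr5, rose by 0.59 (adjusted p = 0.000148) and 0.26 (adjusted p = 0.0131) log2 units in SufuKO. Wdr5, a core subunit of histone methyltransferase complexes, was 1.58-fold higher in the tumours (adjusted p = 8.81e-06), and its SufuKO difference of 0.21 missed the threshold (adjusted p = 0.0502). Sox2, a stem cell factor known to bind Chd7, fell 1.58-fold in SufuKO (adjusted p = 0.000102), while its tumour difference of -0.10 missed the threshold (adjusted p = 0.330). Reln, the guidance protein reelin and a known Chd7 target in granule neuron progenitors, rose 1.31-fold in SufuKO and 1.14-fold in the tumours (adjusted p = 0.0461).

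Elongation factors that work with Chd1 had the smallest median difference of the 5 lists in each mutant. Of 8 tested, 2 rose in SufuKO (Supt16 and Rtf1) and 4 in the tumours (Supt16, Rtf1, Ctr9 and Cdc73), with medians of 0.09 and 0.13 log2 units, and 0 fell (limma; 0 fell at an unadjusted p under 0.05). The count in SufuKO was 1 in 12 of 19 alternatives, among them without any 1 of the wildtype or SufuKO arrays. Supt16, a subunit of the histone chaperone FACT, rose 1.36-fold in SufuKO (adjusted p = 0.00243), and its tumour rise was 1.84-fold (adjusted p = 3.28e-06). Rtf1, the subunit of the Paf1 complex that binds Chd1 in yeast, rose 1.14-fold (adjusted p = 0.0474) and 1.27-fold (adjusted p = 0.000762).

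The ISWI motors and their partners, another nucleosome-sliding family, rose in 6 of 11 cases in SufuKO and in 7 of 11 in the tumours, where 1 fell. Cecr2, a partner of the ISWI motors, rose 1.86-fold and 2.87-fold, Baz1a 1.64-fold and 2.60-fold, Baz1b 1.32-fold and 1.52-fold, and Pole3, a histone-fold subunit, 1.46-fold and 1.60-fold. Baz2a, which silences ribosomal RNA genes, was the gene that fell in the tumours (-0.31, limma adjusted p = 0.00902). Among 21 other Snf2 ATPases, 11 rose and 1 fell in SufuKO, and 12 rose and 1 fell in the tumours. The count that rose in SufuKO was 6 without wildtype replicate 2 and 7 without SufuKO replicate 2. Hells, a remodeller that supports DNA methylation, rose 2.61-fold and 5.61-fold, Rad54l, a motor of recombination repair, 1.74-fold and 3.13-fold, and Zranb3, a motor of stalled replication forks, 1.40-fold and 2.18-fold. Smarca2, the BAF motor Brm, fell 1.20-fold and 1.87-fold (its call in SufuKO was absent in 5 of 19 alternatives, without wildtype replicate 1, 2 or 3 or SufuKO replicate 1, or with sex as a covariate). Smarca4, the alternative BAF motor, rose by 0.23 and 0.22 log2 units.

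Of all 62 tested partner and related genes, 31 rose and 3 fell in SufuKO, and 41 rose and 3 fell in the tumours, with medians of 0.21 and 0.34 log2 units beside -0.01 over all tested genes in each comparison. In the whole array 13% were called higher in SufuKO and 22.1% in the tumours. Those that fell in SufuKO were Mta3, Sox2 and Smarca2, and in the tumours Mta3, Baz2a and Smarca2. Between the mutants 18 were higher in the tumours and 3 lower (Reln, Baz2a and Smarca2), against 12.2% and 17.5% of all tested genes. The call of Reln was absent in 9 of 19 alternatives, among them without any 1 wildtype or SufuKO array and without tumour replicate 1 or 2. That of Baz2a was absent without SufuKO replicate 2 or 3 or tumour replicate 2. Both mutant comparisons share the wildtype arrays, so their counts are given side by side only.

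**Figure D4:**
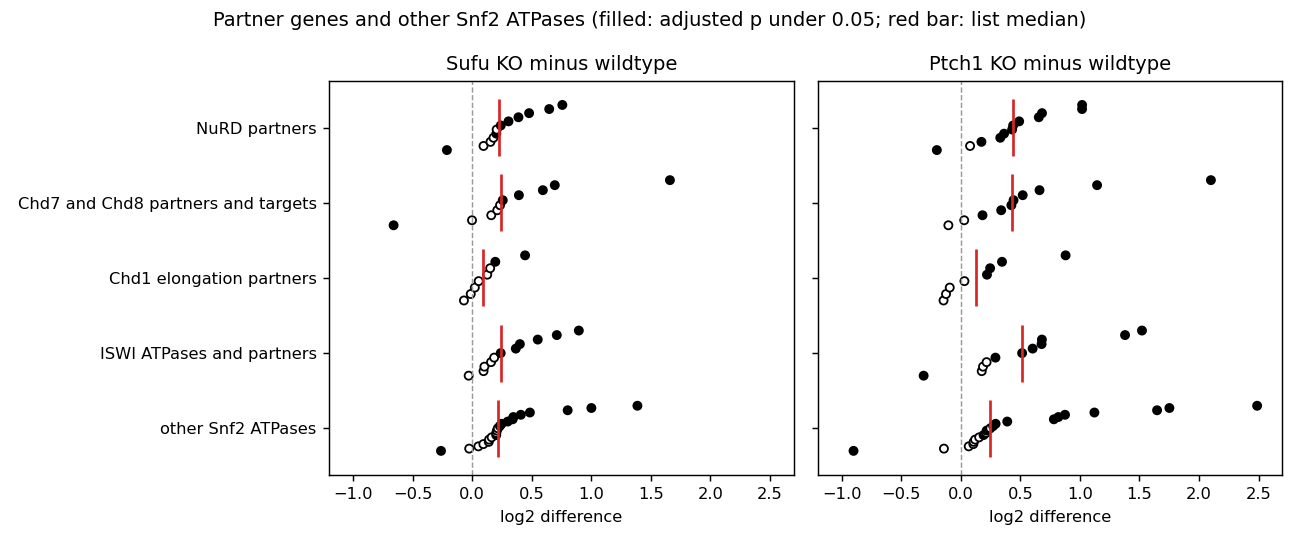
Log2 difference (horizontal axis) of the partner genes and other Snf2 ATPases in each mutant against wildtype, with 1 row of points a list, ordered by size within it. Filled points passed the adjusted p threshold of 0.05 and red bars are list medians; the medians lie right of 0 in all 5 lists, from 0.09 to 0.25 in SufuKO and from 0.13 to 0.52 in the tumours.

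For the 2 Chd genes with the highest and the 2 with the lowest difference in the tumours, the genes with the nearest profile were found by the root mean square difference between log2 profiles over the 9 arrays, each centred on its own mean. For Chd1 they were Snx5, Snx1 and Snrpa1, at 0.031, 0.036 and 0.040 log2 units, where the median over all genes was 0.32. For Chd4 they were Polh, Fzd3 and Baz1b, at 0.031, 0.043 and 0.048, with a median over all genes of 0.29. Baz1b also stands on the ISWI list. For Chd3 they were Pitpnc1, Sez6l and Hmgcs1, at 0.048, 0.049 and 0.049 (median 0.26). For Chd5 they were Ccdc184, Atp13a2 and Slc6a8, at 0.052, 0.054 and 0.064 (median 0.22). These distances were picked as the smallest over all tested genes, so lying below the median was set by the choice. How near the nearest genes of other genes lie was not tested.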

How the data were processed

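Total RNA of 9 samples (3 wildtype cerebella, 3 SufuKO cerebella, 3 Ptch1KO medulloblastomas) was measured on Affymetrix Mouse Gene 1.0 ST arrays. The authors deposited 1 log2 value for each of 35556 probe sets and array; how they were background-corrected, normalized and summarised is not given in the sources used here. They carry no detection calls, and 3 arrays a group limit the precision. Probe sets were named from the array's annotation, with gene identifiers checked in a RefSeq table (GRCm38.p6; 21698 of 21789 single-gene probe sets matched). The 1621 probe sets of several genes and 12146 without a gene were left out. A gene was tested where 3 or more arrays read it above their own 25th percentile.

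Group differences came from limma 3.58.1 under R 4.3.3 (1 mean per group over 9 arrays, empirical Bayes, 2-sided, Benjamini-Hochberg over all 16323 genes, threshold 0.05). Folds are antilogs of log2 differences, SEs are moderated, and intervals are 95% and unadjusted. The other probe sets of a gene were tested in the same model over 17877 probe sets. The script was tested on simulated data. Members and gene lists were chosen with earlier results of these data known. Besides the members, the text names from each partner list the 3 genes with the smallest p in the tumours and the 2 in SufuKO. It also names members of printed counts of 5 or fewer among the partner genes, the 2 leading genes of each marker list in the tumours, and the 3 nearest profiles. Gabra6, Smarca4, Gli1, Ccnd1, Sox10, Olig1, Pax2 and Sst were added after their values were seen. Alternatives varied the filter, normalization, prior, array weights, samples in the fit, replicate block, sex covariate, probe set and each replicate.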

Additional observations from a re-analysis of the deposited data

Results flagged for a closer look

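Chd3 was the Chd gene that was called in opposite directions in the 2 mutants, and the difference between them was itself tested. It was 0.21 log2 units above wildtype in SufuKO and -0.33 in the tumours, and the tumours minus SufuKO gave -0.54 ± 0.06 (SE, limma adjusted p = 7.75e-05), with 3 of 3 tumour arrays below 3 of 3 SufuKO arrays. The rise in SufuKO is the less firm side of this, with an adjusted p between 0.0145 and 0.0953 over its alternatives.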

How the results depend on the processing

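The 27 differences of the 9 Chd genes were recomputed under 19 alternatives each, and 476 of 513 values kept their direction and their side of the threshold, 8 lost a call, 18 gained a call and 11 changed sign. Changes of sign touched uncalled differences near 0: Chd2 between the mutants (0.0242 with quantile normalization, 0.0018 with array weights, and -0.0574 to 0.0333 without single replicates, above 0 without tumour replicate 1 or 3), Chd5 in SufuKO (0.0394 with array weights, and -0.0994 to 0.0235 without single replicates, above 0 without wildtype replicate 1 or 2 or SufuKO replicate 3) and Chd9 in SufuKO (-0.0219 to 0.0548, below 0 without the same 3 arrays). The Chd3 over Chd5 ratio in the tumours against wildtype ran from -0.0355 to 0.101 without single replicates, below 0 without wildtype replicate 1, wildtype replicate 2 or tumour replicate 2. In SufuKO the count of Chd genes higher was 7 with array weights and 5 with a sex covariate, and 2 to 4 without single replicates. Between the mutants the count higher was 2 with quantile normalization and with array weights, and 1 to 2 without single replicates. The other probe sets of Chd6 and Chd7 called between the mutants numbered 1 higher and 3 lower with array weights and 1 lower with an intensity-trended prior. Partner genes higher between the mutants numbered 28 with array weights, and those lower ran from 1 to 3 without single replicates, as they did in SufuKO against wildtype. The array weights were estimated gene by gene and gave SufuKO replicate 2 a weight of 4.66; they raised the calls in SufuKO over all genes from 2122 to 3115 higher and from 2028 to 3007 lower. With the replicate number as a block, the counts of Chd genes called stayed at 3 higher in SufuKO, 4 higher and 3 lower in the tumours, and 1 higher and 3 lower between the mutants, and partner genes higher in SufuKO moved from 31 to 29. Same-numbered samples correlated above 0.1 in their deviations in 2 of 9 pairs, and 3 of 9 samples correlated best with their own number, so the number was not taken as a pairing. The cause of these changes was not tested.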
